A study of Mus musculus with 28 samples.

Results

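Livers of mice labelled as ASK1 macrophage knockouts (ASK1-MKO) were compared with livers of Lyz2-Cre mice, the control genotype of the study. The 8 livers, 4 per genotype, are 8 of the 28 samples in the series, and all genes that passed an expression filter were examined. All 8 came from male mice that were 8 weeks old when they were given a methionine- and choline-deficient (MCD) diet for 4 weeks, a diet that models steatohepatitis. The other livers, 4 labelled NFATc3-MKO and 4 labelled MDKO (NFATc3 and ASK1 double knockout), ate the same diet and entered the same fit. A Cre driven from the Lyz2 locus acts in monocytes, macrophages and neutrophils, so hepatocytes, which make most of the RNA of a liver, keep the targeted gene.

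ASK1, the protein of Map3k5, is a kinase at the top of stress-activated MAP kinase cascades. When oxidants release it from thioredoxin it activates MAP kinase kinases that in turn switch on JNK and p38. In steatohepatitis these kinases are studied both in macrophages, where they drive cytokine production, and in hepatocytes, where they promote cell death. The MCD diet starves the liver of the methyl donors it needs to make phosphatidylcholine and export triglyceride.

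Total counts ran from 25764945 to 29126663 in ASK1-MKO livers and from 20601168 to 28410720 in Lyz2-Cre livers. Levels are given as CPM, the reads of a gene scaled to a common library size after TMM normalization, in the order of replicates 1 to 4. Changes are log2 differences, ASK1-MKO minus Lyz2-Cre, ± the standard error of the edgeR fit, and a gene is said to have risen or fallen where its adjusted p was under 0.05. In a principal component analysis of the 8 livers, the first component (36.0% of the variance) separated the genotypes and the second (19.4%) set Lyz2-Cre 1 and Lyz2-Cre 2 at opposite ends. The labels do not say that each library is a separate animal, so p-values measure the spread between these libraries.

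One feature of the libraries bears on the comparison. Each of the 4 MDKO libraries was closest to the Lyz2-Cre library with its own number, with correlations of log2 CPM of 0.987 to 0.991. The chi-square of their counts, per gene, was 2.31 to 13.7 for these same-number pairs, against 11.5 to 69.0 for Lyz2-Cre and MDKO pairs of other numbers and 16.1 to 67.2 between Lyz2-Cre livers. Counting noise alone would give about 1. Whether tissue or handling was shared was not tested. The MDKO livers are therefore not used here as a second control, and the direct contrast with them, in which 7.72% of genes passed, is not described. With MDKO left out of the fit, 769 genes passed the threshold, and calls that end in that fit of 12 livers are named with each gene.

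The targeted gene was read first. Map3k5 (chromosome 10, 19934101 to 20142750 in GRCm38.p6) measured 41.7, 55.1, 45.4 and 42.8 CPM in the ASK1-MKO livers and 32.7, 31.8, 27.7 and 31.3 CPM in the Lyz2-Cre livers. Every liver labelled ASK1-MKO lay above every Lyz2-Cre liver, the opposite of what the label would give if the transcript were lost (log2 change +0.58 ± 0.15, edgeR adjusted p = 0.0262). An exact 2-sided permutation test over the 8 livers gave p = 0.0286, the smallest that 70 assignments allow. Map3k5 averaged 31.2 ± 8.73 CPM in NFATc3-MKO livers, also below ASK1-MKO (edgeR adjusted p = 0.0241, in a contrast where 12.8% of all genes passed). The call was lost without ASK1-MKO 2 or Lyz2-Cre 3 or 4, or in the fit of 12 livers (adjusted p up to 0.0887). Which exons were deleted is not stated in the labels, and counts over the whole gene could include transcripts of a deleted allele. Nfatc3, the other gene targeted in the study, measured 38.0, 37.3, 37.8 and 36.4 CPM in the ASK1-MKO livers and 30.6, 37.1, 39.8 and 37.6 CPM in the Lyz2-Cre livers, with overlapping groups (log2 change +0.04 ± 0.14, edgeR adjusted p = 0.894).

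The livers labelled ASK1-MKO had less of many female-biased cytochrome P450 and sulfotransferase genes and more of several male-biased genes. Many genes of cholesterol synthesis fell, as did Cyp7a1 and Cyp8b1 of bile acid synthesis and Bhmt and Dmgdh of betaine breakdown. Several glutathione and antioxidant genes fell, and Scd1, Lpin1 and Lpin2 rose. Of the clock genes some rose and others fell, and cytokine, fibrosis and proliferation genes showed almost no calls. Of 13309 genes tested, 593 rose (4.46%) and 533 fell (4%) in ASK1-MKO livers, 8.46% in all. The fold change reached 2 in 117 genes that rose and 187 that fell, and reached 4 in 9 that rose and 49 that fell. The CPM of the groups did not overlap in 2428 genes (18.2%), among them 552 of those that rose and 486 of those that fell. The change of the median gene was -0.03. Removing 1 liver left between 587 and 1025 calls. The fewest remained without Lyz2-Cre 3 (587), Lyz2-Cre 4 (632), ASK1-MKO 1 (640) or ASK1-MKO 2 (730).

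Of 13 sinusoidal endothelial markers Gpr182 fell (log2 change -0.62 ± 0.17, edgeR adjusted p = 0.0356), but lost the call without any 1 liver other than ASK1-MKO 3 or Lyz2-Cre 2 or 4 (adjusted p up to 0.130). For the calls among markers, the shares over all genes tested were 4% that fell and 4.46% that rose. None of 15 hepatocyte, 16 pan-macrophage, 14 Kupffer cell, 5 neutrophil, 13 T and NK cell, 7 B cell or 13 stellate cell markers tested passed the threshold in edgeR. The Kupffer cell marker Marco, a scavenger receptor, measured 7.49, 5.93, 4.25 and 2.88 CPM in the ASK1-MKO livers and 7.48, 36.5, 12.9 and 17.8 CPM in the Lyz2-Cre livers (log2 change -1.86 ± 0.59, edgeR adjusted p = 0.0591). The highest ASK1-MKO liver reached the lowest control, and Marco passed as lower in the fit of 12 livers, in the fit of these 8 livers alone, and with DESeq2 and voom. At an unadjusted p under 0.05 there were 2 Kupffer cell markers, 1 pan-macrophage and 1 hepatocyte marker, and none of the other 4 lists. Voom called 1 pan-macrophage marker. Of 8 dendritic cell markers Bst2, which interferon also induces, rose, and the list summed to 80.6 to 99.5 CPM in the ASK1-MKO livers and 52.2 to 64.8 CPM in the Lyz2-Cre livers, without overlap. Member by member, however, 4 changes were positive and 4 negative, with a median of -0.01. Albumin (Alb) measured 103604, 87989, 91604 and 88635 CPM in the ASK1-MKO livers and 106581, 79268, 99706 and 106216 CPM in the Lyz2-Cre livers. The pan-macrophage markers summed to 358 to 520.4 CPM in the ASK1-MKO livers and 344 to 916 CPM in the Lyz2-Cre livers, with Lyz2-Cre 2 at the top, and 15 of the 16 had a negative log2 change. The 6 erythroid markers tested all had negative changes, with sums of 131 to 259 CPM in the ASK1-MKO livers and 262 to 405 CPM in the Lyz2-Cre livers, and Alas2, the erythroid enzyme that starts heme synthesis, fell (log2 change -1.07 ± 0.13, edgeR adjusted p = 2.27e-04). Hbb-bs also fell (-0.78 ± 0.23, adjusted p = 0.0467), but lost the call without any 1 liver other than ASK1-MKO 3, or with no expression filter or in the fit of 12 livers (adjusted p up to 0.130). In bulk tissue, fewer cells of a type and less RNA per cell cannot be told apart.

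Among 30 genes of ASK1 and the stress MAP kinases, 4 rose and 1 fell, beside 4.46% and 4% of all genes tested. Their median change was +0.13. Txnip, which encodes an inhibitor of thioredoxin and is induced by glucose, measured 408, 264, 184 and 137 CPM in the ASK1-MKO livers and 67.3, 104, 97.3 and 88.4 CPM in the Lyz2-Cre livers. All 4 ASK1-MKO livers were higher, by 2.78-fold on the fitted scale (log2 change +1.47 ± 0.29, edgeR adjusted p = 0.00531). Map2k7, a kinase that activates JNK, rose less (log2 change +0.50 ± 0.10, edgeR adjusted p = 0.00465), with 23.3, 23.1, 26.4 and 23.1 CPM in the ASK1-MKO livers and 17.4, 15.6, 17.3 and 17.7 CPM in the Lyz2-Cre livers. Its groups did not overlap, and both Txnip and Map2k7 kept the call in every alternative that was run. Atf2, a transcription factor that JNK and p38 phosphorylate, rose (+0.52 ± 0.14, adjusted p = 0.0268) but lost the call without any 1 liver other than ASK1-MKO 2 or 4 or Lyz2-Cre 4, or in the fit of 12 livers (adjusted p up to 0.0810). Dusp10, a phosphatase of JNK and p38, fell (-0.93 ± 0.24, adjusted p = 0.0260) and lost it without any 1 liver other than ASK1-MKO 3 or Lyz2-Cre 1, or in the fit of 12 livers (adjusted p up to 0.0775). Without Lyz2-Cre 3, or with the MDKO livers left out, 2 members rose. Mapk8, which encodes JNK1, did not pass in the 16-liver fit (log2 change +0.43 ± 0.14, edgeR adjusted p = 0.0780), nor did Mapk14, which encodes p38 alpha (-0.25 ± 0.13, adjusted p = 0.287).

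**Figure D1:**
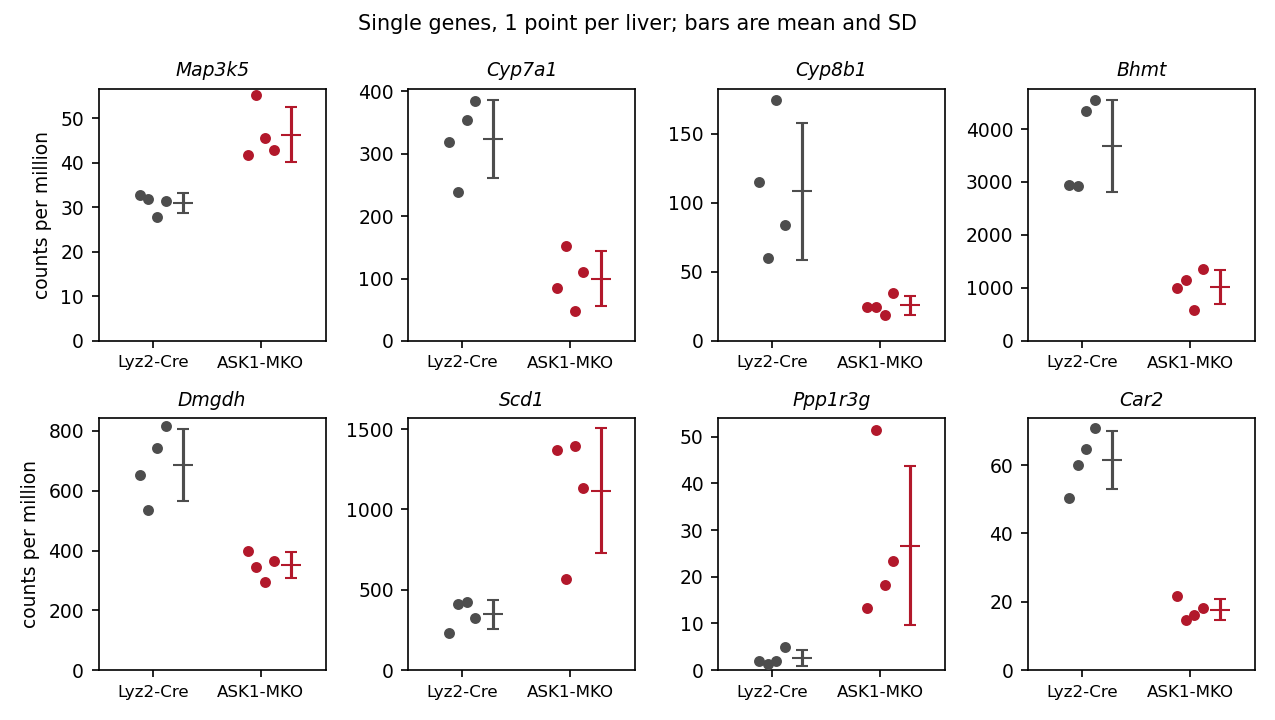
TMM-scaled CPM (vertical axes, linear from 0) of 8 genes in each of the 4 Lyz2-Cre (grey) and 4 ASK1-MKO livers (red); each point is 1 liver and the bars are the mean and SD. The groups do not overlap in any of the 8 panels, and Map3k5 is higher in the livers labelled ASK1-MKO.

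Some of the steepest changes were in genes that differ between the sexes. Male and female mouse livers express different cytochrome P450, sulfotransferase and major urinary protein genes because pulses of growth hormone in males and its steadier release in females act on STAT5 in hepatocytes. Of 30 female-biased genes tested, 13 fell and 1 rose (median -0.52, also with Sult2a5, which had no reads in ASK1-MKO livers, set at its bound), and of 28 male-biased genes, 7 rose and 2 fell (median +0.28). Among all genes tested, 4% fell and 4.46% rose. With 1 liver left out, between 11 and 14 of the female-biased genes fell and between 5 and 7 of the male-biased genes rose. All mice were labelled male.

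Cyp3a44, a female-predominant cytochrome P450, measured 7.83, 2.33, 9.24 and 18.5 CPM in the ASK1-MKO livers and 282, 267, 181 and 153 CPM in the Lyz2-Cre livers. The lowest Lyz2-Cre liver was several times above the highest ASK1-MKO liver, and the fitted level was 23.4-fold lower (log2 change -4.55 ± 0.44, edgeR adjusted p = 3.65e-05). Cyp3a41a, its close neighbour in the same cluster, measured 0.529, 0.10, 0.374 and 0.277 CPM in the ASK1-MKO livers and 26.9, 136, 20.5 and 25.0 CPM in the Lyz2-Cre livers. Lyz2-Cre 2 was far above the other control livers, and the log2 change of -7.34 ± 1.11 became -6.22 without it (edgeR adjusted p = 9.98e-04 with all livers). The Cyp3a genes are near-identical copies, so reads may be shared between them. Cyp3a11, the main hepatic CYP3A enzyme, fell less (log2 change -0.64 ± 0.16, edgeR adjusted p = 0.0166), at 3098 against 4833 CPM on average, and lost the call without ASK1-MKO 1 or Lyz2-Cre 1 or 3 (adjusted p up to 0.0618). It was the third of the 7 Cyp3a genes tested to fall, and none rose, where 4% of all genes tested fell.

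Among sulfotransferases of the Sult2a family, which conjugate bile acids and steroids, Sult2a2, Sult2a3 and Sult2a5 were nearly undetected in ASK1-MKO livers. Sult2a2 measured 0.529, 0.200, 0.306 and 0.316 CPM in the ASK1-MKO livers and 5.91, 15.3, 2.71 and 9.64 CPM in the Lyz2-Cre livers. Its groups were well apart (log2 change -4.63 ± 0.64, edgeR adjusted p = 4.11e-04). Sult2a3 had 2 reads over the 4 ASK1-MKO livers against 203 in the controls, a level 127-fold lower with a 95% counting interval of 34.6 to 1050.0 (edgeR adjusted p = 1.00e-04). Sult2a5 had none against 69, which is at least 28.7-fold lower when 3 counts over the group are taken as the floor. Sult2a1 also fell (log2 change -2.63 ± 0.58, edgeR adjusted p = 0.00991). Sult2a8 (+0.35 ± 0.19, adjusted p = 0.276) and Sult2a7 (+0.08 ± 0.51, adjusted p = 0.947) did not pass, with positive changes. These genes are paralogs that can share reads, so the value of a single member is uncertain. The estrogen sulfotransferase Sult1e1 measured 37.1, 5.13, 6.32 and 13.8 CPM in the ASK1-MKO livers and 53.4, 185, 91.9 and 156 CPM in the Lyz2-Cre livers. ASK1-MKO 1 was the highest of its group but still below every control (log2 change -2.97 ± 0.57, edgeR adjusted p = 0.00467), and without it the change was -3.86. Sult1b1, which sulfates thyroid hormone and phenols, fell 1.92-fold with tightly grouped values (log2 change -0.94 ± 0.13, edgeR adjusted p = 3.66e-04). In all, 6 of the 12 sulfotransferases tested fell and none rose, beside 4% and 4.46% of all genes tested, and 5 of 17 were below the expression filter. Summed together, the 17 measured 791 to 1066 CPM in the ASK1-MKO livers and 911 to 1313 CPM in the Lyz2-Cre livers, with overlap.

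Among the other female-biased genes, Cyp2b13, a cytochrome P450, fell from 38.9, 7.18, 13.1 and 23.1 CPM in the Lyz2-Cre livers to 6.39, 3.17, 3.64 and 4.11 CPM (log2 change -2.25 ± 0.50, edgeR adjusted p = 0.0104). Cyp2a22 was lower in all 4 ASK1-MKO livers (log2 change -0.98 ± 0.21, edgeR adjusted p = 0.00791), at 71.8 against 141 CPM on average. The organic anion transporter genes Slc22a26 and Slc22a27 fell as well (-1.50 ± 0.27, adjusted p = 0.00253 and -0.49 ± 0.11, adjusted p = 0.0129). The female-biased Cyp2b9 did not follow, with overlapping values and a change of +0.18 ± 0.21 (edgeR adjusted p = 0.647), and Trim24, a nuclear receptor cofactor, rose (+0.45 ± 0.10, adjusted p = 0.0114).

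Of the male-biased genes, the major urinary protein gene Mup3 measured 471, 282, 386 and 473 CPM in the ASK1-MKO livers and 138, 127, 107 and 155 CPM in the Lyz2-Cre livers. No control liver came near the ASK1-MKO range (log2 change +1.61 ± 0.20, edgeR adjusted p = 2.13e-04). Mup19 rose 5.71-fold (log2 change +2.51 ± 0.36, edgeR adjusted p = 5.10e-04), although the Mup genes are near-identical and their reads may be shared. Mup20 rose 2.0-fold but lost the call in several alternatives (adjusted p up to 0.119). On the fitted scale, Mup21, Mup11 and Mup17 were 1.26-, 1.23- and 1.19-fold higher. Mup12, Mup1 and Mup7 were 2.09-, 1.35- and 1.04-fold lower. Slco1a1, a bile acid and steroid uptake transporter, measured 53.3, 75.4, 92.5 and 86.5 CPM in the ASK1-MKO livers and 14.2, 7.90, 25.4 and 23.0 CPM in the Lyz2-Cre livers. It was 4.37-fold higher, with Lyz2-Cre 2 the lowest of the 8 livers (log2 change +2.13 ± 0.47, edgeR adjusted p = 0.0106). Cyp2c54, a cytochrome P450 of the Cyp2c cluster, rose 4.95-fold from 3.66, 2.55, 3.70 and 5.52 to 17.4, 25.4, 14.5 and 18.8 CPM (log2 change +2.31 ± 0.26, edgeR adjusted p = 1.12e-04). Hsd3b5, a male-specific steroid dehydrogenase, rose from a very low level (+2.08 ± 0.47, adjusted p = 0.0113), and its change was 2.73 without Lyz2-Cre 4. The male-biased P450 Cyp4a12a did not pass the threshold (-0.58 ± 0.40, adjusted p = 0.410), and Cyp4a12b fell (-1.41 ± 0.37, adjusted p = 0.0267) but lost the call without any 1 liver other than ASK1-MKO 4 or Lyz2-Cre 2, or in the fit of 12 livers (adjusted p up to 0.0881).

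Some genes of the growth hormone, STAT5 and IGF list changed as well. Bcl6, a repressor that is higher in male liver, measured 2.80, 4.50, 3.77 and 3.75 CPM in the ASK1-MKO livers and 8.97, 7.69, 10.5 and 15.7 CPM in the Lyz2-Cre livers, which is 2.88-fold lower (log2 change -1.53 ± 0.30, edgeR adjusted p = 0.00555). It is among the 2 male-biased genes counted above as fallen, and its direction is opposite to that of most of the male-biased genes named above. Socs2, a feedback inhibitor induced by growth hormone, rose (log2 change +1.27 ± 0.28, edgeR adjusted p = 0.0106), with only ASK1-MKO 3 inside the control range. Lepr, the leptin receptor, measured 70.9, 93.2, 79.7 and 164 CPM in the ASK1-MKO livers and 38.9, 34.5, 31.1 and 22.7 CPM in the Lyz2-Cre livers and rose 3.2-fold (log2 change +1.68 ± 0.26, edgeR adjusted p = 8.92e-04). Onecut1, a transcription factor that growth hormone induces in liver, rose (+1.42 ± 0.34, adjusted p = 0.0152) but lost the call without ASK1-MKO 2 or Lyz2-Cre 4 (adjusted p up to 0.0540). Socs3, a cytokine feedback inhibitor, rose (+1.15 ± 0.27, adjusted p = 0.0134) and lost it without Lyz2-Cre 3 or 4 (adjusted p up to 0.0523). In the growth hormone, STAT5 and IGF list, 4 of 18 rose and 1 fell, beside 4.46% and 4% of all genes tested. Without Lyz2-Cre 4 the number that rose was 2. Neither the growth hormone receptor Ghr (+0.21 ± 0.14, adjusted p = 0.385) nor Igf1 (-0.08 ± 0.18, adjusted p = 0.835) passed.

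**Figure D2:**
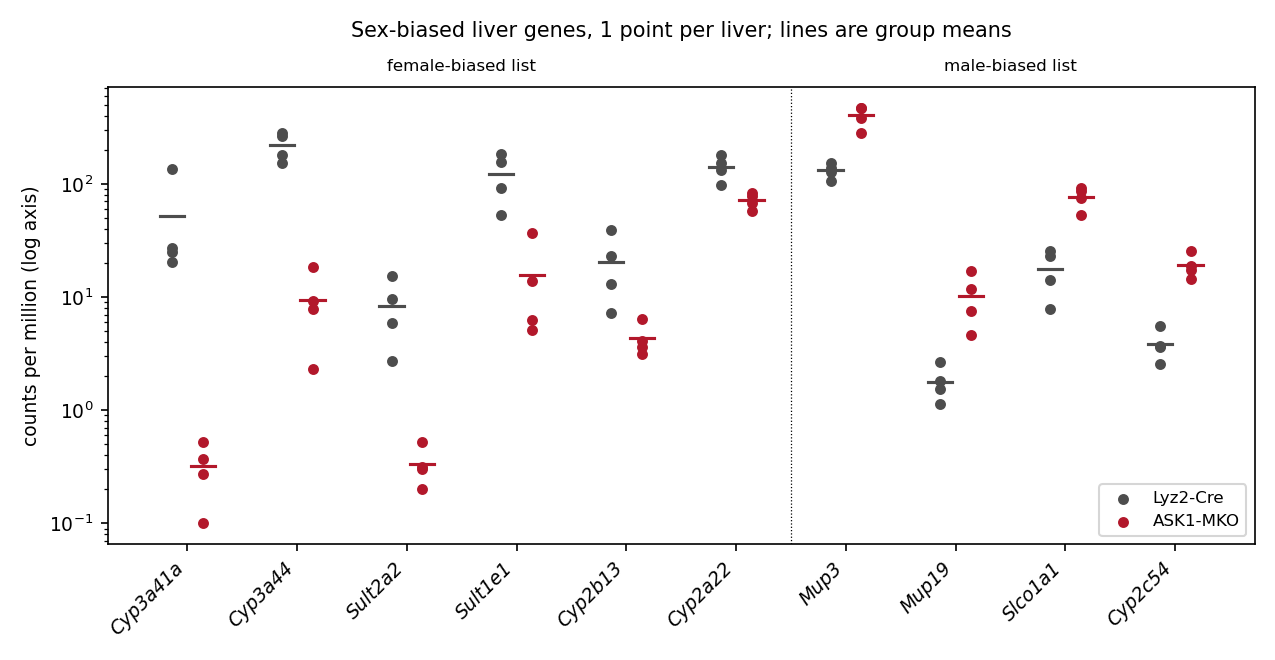
TMM-scaled CPM (log axis) of 6 female-biased genes (left of the dotted line) and 4 male-biased genes (right) in Lyz2-Cre (grey) and ASK1-MKO livers (red); each point is 1 liver and the lines are group means. The genes shown were picked among those called. These female-biased genes are lower and these male-biased genes higher in ASK1-MKO livers, with no overlap between groups. In the full lists, 13 of 30 female-biased genes tested fell and 1 rose, and 7 of 28 male-biased genes rose and 2 fell.

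Across the Cyp2c family, 3 of 13 genes tested rose and 2 fell, beside 4.46% and 4% of all genes tested. Beside Cyp2c54, Cyp2c67 measured 167, 179, 206 and 194 CPM in the ASK1-MKO livers and 119, 43.3, 66.1 and 81.6 CPM in the Lyz2-Cre livers and Cyp2c70, which makes muricholic acids, measured 361, 254, 359 and 290.1 CPM in the ASK1-MKO livers and 209, 162, 143 and 193 CPM in the Lyz2-Cre livers. In both, all ASK1-MKO livers were above all controls (log2 change +1.27 ± 0.27, edgeR adjusted p = 0.00826 and +0.84 ± 0.16, adjusted p = 0.00454). Cyp2c55 fell 2.08-fold (log2 change -1.06 ± 0.21, edgeR adjusted p = 0.00619). Cyp2c40 fell (-0.70 ± 0.21, adjusted p = 0.0472) but lost the call without any 1 liver other than Lyz2-Cre 2, or with DESeq2 size factors or with no expression filter or in the fit of 12 livers (adjusted p up to 0.134). Cyp2c29 had overlapping groups (+0.12 ± 0.30, adjusted p = 0.849).

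Genes of cholesterol synthesis fell as a group. The pathway joins acetyl-CoA units into mevalonate, turns mevalonate into squalene and lanosterol, and trims lanosterol to cholesterol. Its genes are controlled together by SREBP2, a factor held back in the endoplasmic reticulum while sterol is plentiful. Of 21 genes, all tested, 12 fell and none rose (median -0.86), against 4% of all genes. Leaving out ASK1-MKO 1, ASK1-MKO 4 or Lyz2-Cre 1 left 6, 7 and 7 that fell, and 9 fell with the MDKO livers left out. Lyz2-Cre 2 was the lowest control liver, and ASK1-MKO 2 the highest of its group, for all 12 and 10 of the 12 that fell, in that order.

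At the top of the pathway, Hmgcs1, which makes HMG-CoA, measured 115, 197, 132 and 95.3 CPM in the ASK1-MKO livers and 382, 235, 294 and 384 CPM in the Lyz2-Cre livers. The groups did not overlap, and the fitted level was 2.4-fold lower (log2 change -1.26 ± 0.24, edgeR adjusted p = 0.00443). Mvk, mevalonate kinase, fell from 20.8, 13.7, 16.5 and 17.9 to 5.22, 11.0, 8.39 and 7.07 CPM (log2 change -1.12 ± 0.20, edgeR adjusted p = 0.00237). The steepest fall in the pathway was that of Mvd, mevalonate diphosphate decarboxylase, which measured 3.02, 5.13, 4.28 and 4.50 CPM in the ASK1-MKO livers and 22.9, 9.22, 14.0 and 12.3 CPM in the Lyz2-Cre livers and was 3.45-fold lower (log2 change -1.79 ± 0.27, edgeR adjusted p = 8.15e-04). Pmvk, which acts between Mvk and Mvd, fell (-0.86 ± 0.20, adjusted p = 0.0146) and lost the call without ASK1-MKO 1 (adjusted p up to 0.0535).

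In the later steps, Cyp51, which demethylates lanosterol, measured 46.4, 109, 96.2 and 53.1 CPM in the ASK1-MKO livers and 181, 116, 161 and 169.5 CPM in the Lyz2-Cre livers. The highest ASK1-MKO liver was just below the lowest control (log2 change -1.04 ± 0.24, edgeR adjusted p = 0.0129). Tm7sf2, a sterol reductase, and Dhcr7, which makes cholesterol from its last precursor, fell 1.99-fold and 1.94-fold (-0.99 ± 0.21, adjusted p = 0.00905 and -0.96 ± 0.17, adjusted p = 0.00273). These calls, with Hmgcs1, Mvk and Mvd, held in every alternative run. Those of Fdps, Sqle, Lss, Msmo1 and Nsdhl did not. Fdps (-0.99 ± 0.24, adjusted p = 0.0183), the farnesyl diphosphate synthase, lost its call without ASK1-MKO 1 or 4 or Lyz2-Cre 1 or 3 (adjusted p up to 0.0656). Sqle (-1.02 ± 0.30, adjusted p = 0.0446), the squalene epoxidase, lost it without any 1 liver other than ASK1-MKO 2 or 3, or with no expression filter or in the fit of these 8 livers alone or in the fit of 12 livers (adjusted p up to 0.147). Lss (-0.70 ± 0.18, adjusted p = 0.0217), which makes lanosterol, lost it without ASK1-MKO 1 or 4 or Lyz2-Cre 1 or 3, or in the fit of 12 livers (adjusted p up to 0.0793). Msmo1 (-1.03 ± 0.25, adjusted p = 0.0166) lost it without ASK1-MKO 1 or 4 or Lyz2-Cre 1 or 4 (adjusted p up to 0.0624), and Nsdhl (-0.86 ± 0.23, adjusted p = 0.0263) lost it without ASK1-MKO 1 or 4 or Lyz2-Cre 1 or 3, or in the fit of these 8 livers alone or in the fit of 12 livers (adjusted p up to 0.0843); both remove methyl groups from sterols. Sc5d, Lbr and Ggps1 were the 3 members whose change was positive, none past the threshold.

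**Figure D3:**
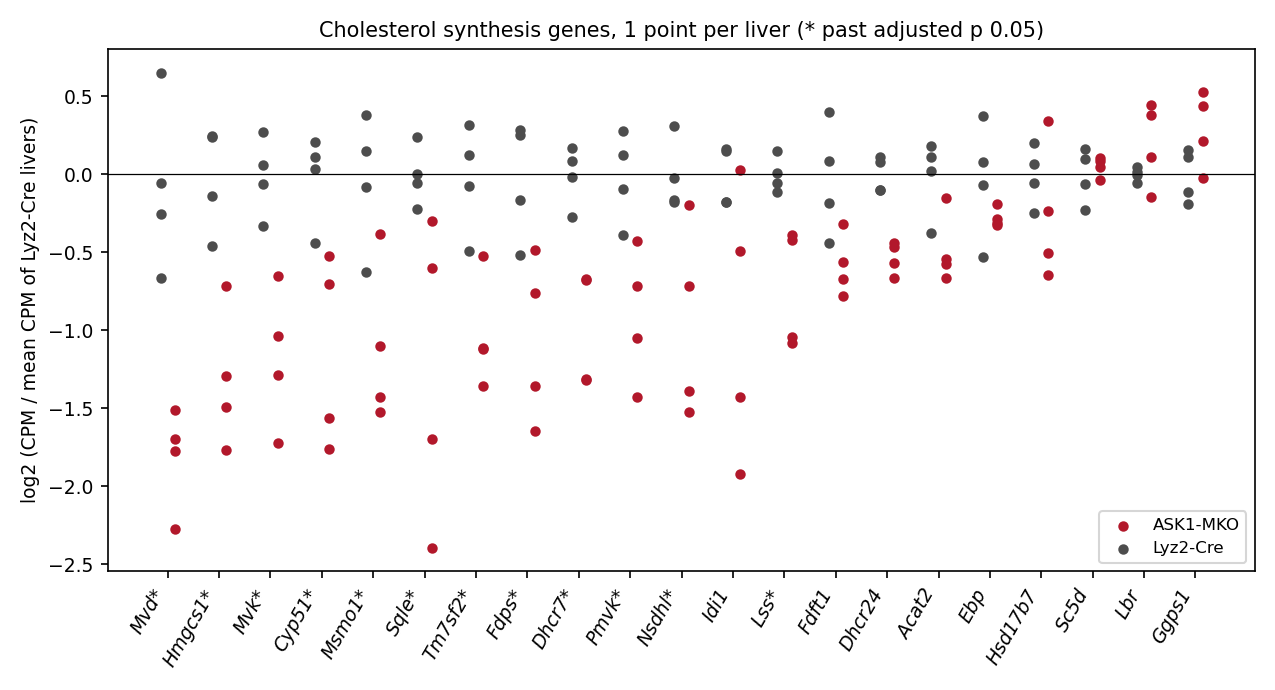
Log2 of CPM over the mean of the Lyz2-Cre livers (vertical axis) for the 21 cholesterol synthesis genes (horizontal axis), with 1 point per liver, grey for Lyz2-Cre and red for ASK1-MKO; asterisks mark the 12 genes that fell. Most red points lie below 0, and Sc5d, Lbr and Ggps1 at the right do not share the pattern.

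The promoters of these genes are shown because the members fell together. RefSeq sequences (GRCm38.p6, 250 bases before to 50 after each start) were matched for 17 of the 21 genes, 10 that fell and 7 that did not pass. A sterol regulatory element, the site of SREBP, was searched as TCACNCCAC, a CCAAT box, bound by NF-Y, as CCAAT, and a GC box, bound by SP1, as GGGCGG, each on both strands. The 4 matched members with the smallest p are printed in lower case on the strand of the gene, with every match in capitals.
Mvd, chr8:122443373-122443672, minus strand: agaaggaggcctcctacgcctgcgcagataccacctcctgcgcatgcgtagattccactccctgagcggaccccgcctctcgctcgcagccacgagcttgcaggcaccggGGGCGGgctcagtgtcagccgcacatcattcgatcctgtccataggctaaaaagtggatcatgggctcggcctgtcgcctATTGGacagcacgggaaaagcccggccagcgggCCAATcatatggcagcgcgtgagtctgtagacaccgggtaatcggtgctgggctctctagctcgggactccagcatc
Mvk, chr5:114444019-114444318, plus strand: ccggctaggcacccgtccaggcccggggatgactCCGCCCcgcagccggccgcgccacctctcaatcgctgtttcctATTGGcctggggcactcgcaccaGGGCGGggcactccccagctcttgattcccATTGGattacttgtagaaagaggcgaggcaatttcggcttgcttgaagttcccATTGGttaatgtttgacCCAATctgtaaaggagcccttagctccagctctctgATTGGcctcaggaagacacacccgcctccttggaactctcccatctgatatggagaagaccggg
Dhcr7, chr7:143822917-143823216, plus strand, the first of 3 listed starts: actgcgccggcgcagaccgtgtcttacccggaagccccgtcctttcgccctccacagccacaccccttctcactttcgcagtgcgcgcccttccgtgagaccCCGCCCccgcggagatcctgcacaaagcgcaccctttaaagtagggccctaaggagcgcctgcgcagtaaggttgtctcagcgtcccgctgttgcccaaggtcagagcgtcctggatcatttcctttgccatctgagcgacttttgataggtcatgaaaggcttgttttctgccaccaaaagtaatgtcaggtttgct
Hmgcs1, chr13:119690101-119690400, plus strand: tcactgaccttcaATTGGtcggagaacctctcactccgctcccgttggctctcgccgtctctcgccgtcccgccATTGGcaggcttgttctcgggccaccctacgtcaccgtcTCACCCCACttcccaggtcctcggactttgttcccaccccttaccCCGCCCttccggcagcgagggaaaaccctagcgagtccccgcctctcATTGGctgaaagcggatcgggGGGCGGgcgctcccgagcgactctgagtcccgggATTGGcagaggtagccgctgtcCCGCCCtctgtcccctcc

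In these windows Mvk and Hmgcs1 hold several CCAAT boxes, Mvd holds 1 on each strand, and the Dhcr7 window holds a GC box only. The sterol element spelled TCACCCCAC lies 137 bases before the start of Hmgcs1. Counting every listed promoter of a gene, the CCAAT box was present in 10 of 10 genes that fell and 6 of 7 that did not, against 37.4% of all 32851 promoters and 42.8% of genes tested. The GC box was present in 9 of 10 and 6 of 7, against 35.7% of promoters and 66.4% of genes tested. The sterol element was present in 1 of 10 and 0 of 7, against 1.24% of promoters. A match describes the letters only, and genes that fell and genes that did not were alike in the first 2 motifs.

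Beyond the pathway itself, Npc1, which exports cholesterol from lysosomes, rose (log2 change +0.61 ± 0.12, edgeR adjusted p = 0.00419), with 225, 201, 211 and 161 CPM in the ASK1-MKO livers and 139, 123, 126 and 133 CPM in the Lyz2-Cre livers. The groups were apart. Mbtps1, the protease that starts SREBP cleavage, rose (+0.43 ± 0.12, adjusted p = 0.0290) but lost the call without any 1 liver other than Lyz2-Cre 2, or in the fit of 12 livers (adjusted p up to 0.0968). Srebf2, which encodes SREBP2, did not pass (-0.27 ± 0.12, adjusted p = 0.172), nor did Insig1 (-0.21 ± 0.23, adjusted p = 0.646). In all, 2 of 13 SREBP regulators and LDL uptake genes tested rose and none fell, beside 4.46% and 4% of all genes tested. None of 14 LXR target and sterol efflux genes passed in either direction, among them Abca1 (-0.07 ± 0.21, adjusted p = 0.881) and Abcg5 (-0.12 ± 0.16, adjusted p = 0.700). In that list 5 had an unadjusted p under 0.05, DESeq2 called 1 and voom 4.

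Of 21 bile acid synthesis and transport genes tested, 2 fell, against 4% of all genes, and 1 rose. The changes were positive in 14 (median +0.10). Cyp7a1, the rate-limiting enzyme of the classical pathway, measured 85.5, 153, 47.9 and 111 CPM in the ASK1-MKO livers and 319, 238, 354 and 384 CPM in the Lyz2-Cre livers. It was 3.26-fold lower without overlap (log2 change -1.70 ± 0.33, edgeR adjusted p = 0.00499). Cyp8b1, the 12-alpha-hydroxylase that sets the share of cholic acid, measured 24.5, 24.4, 18.9 and 34.8 CPM in the ASK1-MKO livers and 115, 59.7, 174 and 84.0 CPM in the Lyz2-Cre livers. It fell 4.22-fold (log2 change -2.08 ± 0.39, edgeR adjusted p = 0.00415). With Slco1a1, which rose, these were the 3 calls, and all 3 held in every alternative. The export pump Abcb11 did not pass (+0.24 ± 0.20, adjusted p = 0.504). Cyp7a1 in ASK1-MKO livers did not differ past the threshold from NFATc3-MKO livers (134 ± 63.9 CPM, edgeR adjusted p = 0.376), whereas Cyp8b1 did (68.1 ± 46.6 CPM, adjusted p = 0.0256). Cyp7a1 is also a gene with a strong daily rhythm, and clock genes differed between these groups. Their part in its change was not tested.

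Bhmt and Dmgdh, enzymes of betaine breakdown, which recycles the methyl groups of choline, were lower in ASK1-MKO livers. Both genotypes ate the diet without choline and methionine. Bhmt, which uses betaine to regenerate methionine, measured 1008, 1151, 590.3 and 1351 CPM in the ASK1-MKO livers and 2937, 2916, 4333 and 4539 CPM in the Lyz2-Cre livers. Every control was far above every ASK1-MKO liver, and the fitted level was 3.59-fold lower (log2 change -1.84 ± 0.24, edgeR adjusted p = 2.33e-04). Dmgdh, the next enzyme in the breakdown of betaine, measured 397, 346, 295 and 365 CPM in the ASK1-MKO livers and 652, 536, 744 and 817 CPM in the Lyz2-Cre livers (log2 change -0.97 ± 0.16, edgeR adjusted p = 0.00186). Both calls held in every alternative. Bhmt2 (-0.74 ± 0.20, adjusted p = 0.0274) and Nnmt, which consumes methyl groups to methylate nicotinamide (-0.80 ± 0.21, adjusted p = 0.0281), fell as well. Bhmt2 lost the call without any 1 liver other than ASK1-MKO 2 or Lyz2-Cre 2, or in the fit of 12 livers (adjusted p up to 0.0887), and Nnmt lost it without any 1 liver other than ASK1-MKO 2 or Lyz2-Cre 2 (adjusted p up to 0.104). These were the 4 of 25 methionine, choline and one-carbon genes that fell, and none rose (median -0.26). The shares over all genes tested were 4% and 4.46%. Mat1a, which makes S-adenosylmethionine (-0.30 ± 0.17, adjusted p = 0.295), and Pemt, which methylates phosphatidylethanolamine (-0.31 ± 0.21, adjusted p = 0.418), did not pass. Bhmt was also lower than in NFATc3-MKO livers (2972 ± 471 CPM, adjusted p = 6.20e-04).

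Fat metabolism changed at single genes rather than along whole pathways. Scd1, the stearoyl-CoA desaturase, measured 1371, 565, 1397 and 1135 CPM in the ASK1-MKO livers and 230.5, 412, 426 and 327 CPM in the Lyz2-Cre livers. Even ASK1-MKO 2, the lowest of its group, was above every control, and the level was 3.2-fold higher (log2 change +1.68 ± 0.35, edgeR adjusted p = 0.00806). Lpin1 and Lpin2, phosphatidate phosphatases that make diacylglycerol, rose 2.98-fold and 2.78-fold (+1.58 ± 0.34, adjusted p = 0.00991 and +1.47 ± 0.20, adjusted p = 3.61e-04). Lpin2 measured 379.9, 540.2, 417 and 398 CPM in the ASK1-MKO livers and 156, 158, 176 and 135 CPM in the Lyz2-Cre livers. Mlxipl, which encodes the glucose-sensing factor ChREBP, rose without overlap (log2 change +0.95 ± 0.15, edgeR adjusted p = 9.98e-04), at 33.7 against 17.4 CPM on average. Elovl1, an elongase of very long fatty acids, fell (-0.42 ± 0.11, adjusted p = 0.0320) but lost the call without any 1 liver other than Lyz2-Cre 4, or with no expression filter or in the fit of 12 livers (adjusted p up to 0.101). Scd2 fell (-0.70 ± 0.21, adjusted p = 0.0460) and lost it without any 1 liver other than Lyz2-Cre 1, or in the fit of 12 livers (adjusted p up to 0.136). In this list 4 of 22 rose and 2 fell, beside 4.46% and 4% of all genes tested. Fasn, fatty acid synthase, measured 169.7, 146, 728 and 307 CPM in the ASK1-MKO livers and 634, 464, 919 and 657 CPM in the Lyz2-Cre livers, with ASK1-MKO 3 inside the control range. It did not pass (log2 change -0.99 ± 0.48, edgeR adjusted p = 0.222), but did without that liver (adjusted p = 0.0312).

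No gene passed among 17 lipid droplet and lipolysis genes or 24 genes of fatty acid oxidation and PPAR alpha targets. In edgeR, 2 members of each list had an unadjusted p under 0.05, and DESeq2 called 1 and 0, voom 2 and 3. The droplet coat gene Plin2 measured 702, 574, 638 and 739.6 CPM in the ASK1-MKO livers and 655, 688, 541 and 549 CPM in the Lyz2-Cre livers and Cpt1a, which admits fatty acids to mitochondria, measured 698, 793, 475 and 803 CPM in the ASK1-MKO livers and 777, 587, 580.2 and 627 CPM in the Lyz2-Cre livers. Both had overlapping groups (+0.13 ± 0.13, adjusted p = 0.598 and +0.11 ± 0.18, adjusted p = 0.764). Fgf21, a hepatokine induced by fasting and stress, ranged widely within both groups (-1.44 ± 0.65, adjusted p = 0.189). Among 30 genes of oxidative phosphorylation none passed, although 29 of the 30 changes were negative, with a median of -0.18. Of the 30, 4 had an unadjusted p under 0.05 in edgeR, DESeq2 called 1 and voom 2.

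In glucose metabolism, Ppp1r3g, a glycogen-targeting subunit of protein phosphatase 1, rose. Among called genes with non-overlapping groups and at least 1 CPM on average in the higher group, it had the largest rise. It measured 13.4, 51.4, 18.2 and 23.5 CPM in the ASK1-MKO livers and 2.01, 1.40, 1.96 and 5.00 CPM in the Lyz2-Cre livers. ASK1-MKO 2 was the highest, and every ASK1-MKO liver was above every control (log2 change +3.38 ± 0.68, edgeR adjusted p = 0.00604). It was the 1 call among 16 glycogen genes, where 8.46% of all genes were called. Pck1, the gluconeogenic carboxykinase, rose (log2 change +1.27 ± 0.34, edgeR adjusted p = 0.0281), at 2494 against 1032 CPM on average, but lost the call without ASK1-MKO 1 or 2 or Lyz2-Cre 1 or 3 (adjusted p up to 0.0829). Pfkp, a phosphofructokinase that is minor in hepatocytes, fell (log2 change -1.10 ± 0.22, edgeR adjusted p = 0.00592). These were the 2 calls among 24 genes of glycolysis and gluconeogenesis, a share near the 8.46% of all genes. Pklr and G6pc did not pass.

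Of 30 NRF2 target and glutathione genes, 8 fell and none rose (median -0.32), beside 4% and 4.46% of all genes tested. NRF2 is the factor that induces antioxidant and conjugating enzymes. Hmox1, heme oxygenase 1, measured 20.3, 14.9, 17.3 and 13.2 CPM in the ASK1-MKO livers and 31.5, 51.4, 40.5 and 29.2 CPM in the Lyz2-Cre livers. It was 2.32-fold lower with no overlap (log2 change -1.22 ± 0.27, edgeR adjusted p = 0.0110). The glutathione transferase Gsta2 fell from 116, 76.7, 90.3 and 91.4 to 40.7, 53.2, 42.2 and 30.97 CPM (log2 change -1.16 ± 0.20, edgeR adjusted p = 0.00209). Gstm2 fell as well (-0.66 ± 0.15, adjusted p = 0.0113), as did Abcc4, an efflux pump of the sinusoidal membrane (-1.35 ± 0.22, adjusted p = 0.00158). These 4 calls held in every alternative. Nfe2l2, which encodes NRF2, fell (log2 change -0.49 ± 0.12, edgeR adjusted p = 0.0166) but lost the call without ASK1-MKO 1 or Lyz2-Cre 4 (adjusted p up to 0.0619). Gsta1, a near copy of Gsta2, lost it without ASK1-MKO 4 (adjusted p up to 0.0566), Gsta4 without any 1 liver other than ASK1-MKO 2 or Lyz2-Cre 2, or in the fit of 12 livers (adjusted p up to 0.127), and the pentose phosphate enzyme Tkt without any 1 liver other than ASK1-MKO 3 or Lyz2-Cre 2 (adjusted p up to 0.102). Without ASK1-MKO 1, ASK1-MKO 4 or Lyz2-Cre 4, 5 members fell. Nqo1 (-0.64 ± 0.23, adjusted p = 0.0917) and Gclc (-0.02 ± 0.22, adjusted p = 0.963) did not pass.

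On a list of targets of the xenobiotic receptors CAR, PXR and AhR, which also holds Ahr itself, 5 of 20 genes tested fell and none rose. The median change was -0.18, and 4% of all genes fell. Aldh1a1, which makes retinoic acid from retinaldehyde, measured 1214, 929.2, 1034 and 1156 CPM in the ASK1-MKO livers and 2074, 2483, 2461 and 2504 CPM in the Lyz2-Cre livers. The groups were tight and well apart (log2 change -1.14 ± 0.13, edgeR adjusted p = 1.17e-04). Its paralog Aldh1a7 fell 2.66-fold (log2 change -1.41 ± 0.16, edgeR adjusted p = 1.00e-04), with the caution that their reads may be shared. Ahr, the aryl hydrocarbon receptor, measured 37.6, 38.5, 35.5 and 33.6 CPM in the ASK1-MKO livers and 59.3, 66.2, 76.4 and 103 CPM in the Lyz2-Cre livers and fell (log2 change -1.07 ± 0.19, edgeR adjusted p = 0.00306), while its classical hepatic target Cyp1a2 did not pass (-0.15 ± 0.17, adjusted p = 0.627). On the fitted scale Cyp1a1 was 1.12-fold higher and Cyp2b10 was 1.14-fold lower. Cyp2b13 and Cyp2a5 also fell, and Cyp2a5, which shares reads with its near copy, was the weaker (-0.65 ± 0.19, adjusted p = 0.0460); it lost the call without any 1 liver other than Lyz2-Cre 2, or with DESeq2 size factors or with no expression filter or in the fit of 12 livers (adjusted p up to 0.139). Aldh1a1 and Aldh1a7 were also lower than in NFATc3-MKO livers, which averaged 2728 and 449 CPM (edgeR adjusted p = 1.06e-05 and 5.12e-05).

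Clock genes differed between the groups in a set of opposite directions. The hepatic clock alternates between BMAL1 with its output factors and the repressors REV-ERB, PER and CRY, so each gene peaks at its own hour, and the labels give no hour of collection. Of 21 clock and output genes, 7 rose and 3 fell, beside 4.46% and 4% of all genes tested. Nr1d1, which encodes REV-ERB alpha, measured 46.8, 16.8, 23.2 and 19.4 CPM in the ASK1-MKO livers and 9.29, 8.63, 6.08 and 6.91 CPM in the Lyz2-Cre livers. ASK1-MKO 1 was highest (log2 change +1.78 ± 0.29, edgeR adjusted p = 0.00161). Nr1d2, which encodes REV-ERB beta, rose 2.86-fold (log2 change +1.51 ± 0.17, edgeR adjusted p = 1.17e-04), with 184, 168, 174 and 145 CPM in the ASK1-MKO livers and 64.1, 70.5, 46.5 and 53.7 CPM in the Lyz2-Cre livers. The output factor Dbp rose from 43.0, 29.1, 13.2 and 28.7 to 93.7, 64.8, 64.7 and 73.2 CPM (log2 change +1.38 ± 0.31, edgeR adjusted p = 0.0112). Per1 and Per3 rose (+1.07 ± 0.14, adjusted p = 2.33e-04 and +1.04 ± 0.21, adjusted p = 0.00725), whereas Per2 fell (-0.70 ± 0.14, adjusted p = 0.00489).

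Cry1, a repressor of BMAL1, measured 9.00, 12.9, 11.0 and 11.9 CPM in the ASK1-MKO livers and 19.0, 18.3, 28.0 and 25.6 CPM in the Lyz2-Cre livers. It fell without overlap (log2 change -1.02 ± 0.17, edgeR adjusted p = 0.00186). The calls of Nr1d1, Nr1d2, Dbp, Per1, Per2, Per3 and Cry1 held in every alternative. Bmal1 fell (-1.86 ± 0.53, adjusted p = 0.0383) but lost the call without any 1 liver other than Lyz2-Cre 1 or 2, or with no expression filter (adjusted p up to 0.170), Tef (+0.65 ± 0.17, adjusted p = 0.0262) lost it without any 1 liver other than ASK1-MKO 3 or Lyz2-Cre 1, or in the fit of 12 livers (adjusted p up to 0.0872), and Ciart (+0.73 ± 0.20, adjusted p = 0.0345) without any 1 liver other than ASK1-MKO 2 or 3 or Lyz2-Cre 4, or in the fit of 12 livers (adjusted p up to 0.103).

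The NFATc3-MKO livers shared this pattern in part. Their means were 22.4 CPM for Nr1d1, 28.4 for Per2, 10.7 for Cry1 and 53.8 for Dbp. None of these 4 differed from ASK1-MKO past the threshold (edgeR adjusted p = 0.572, 0.565, 0.819 and 0.310), while Nr1d2 (0.0128) and Per1 (0.00528) did. The part of time of day in any other result here was not tested. Some of the genes named here also differed from NFATc3-MKO, in a contrast where 12.8% of all genes passed. In NFATc3-MKO livers, Cyp3a44 averaged 231 CPM (edgeR adjusted p = 1.06e-05), Sult2a3 averaged 32.6 (adjusted p = 2.28e-08), Hmgcs1 averaged 309 (adjusted p = 0.00478) and Scd1 averaged 102 (adjusted p = 3.80e-05). Lyz2-Cre livers averaged 221 CPM for Cyp3a44, but 2.29 for Sult2a3 and 349 for Scd1. Part of the Sult2a3 and Scd1 contrasts thus lies between the NFATc3-MKO and Lyz2-Cre means.

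**Figure D4:**
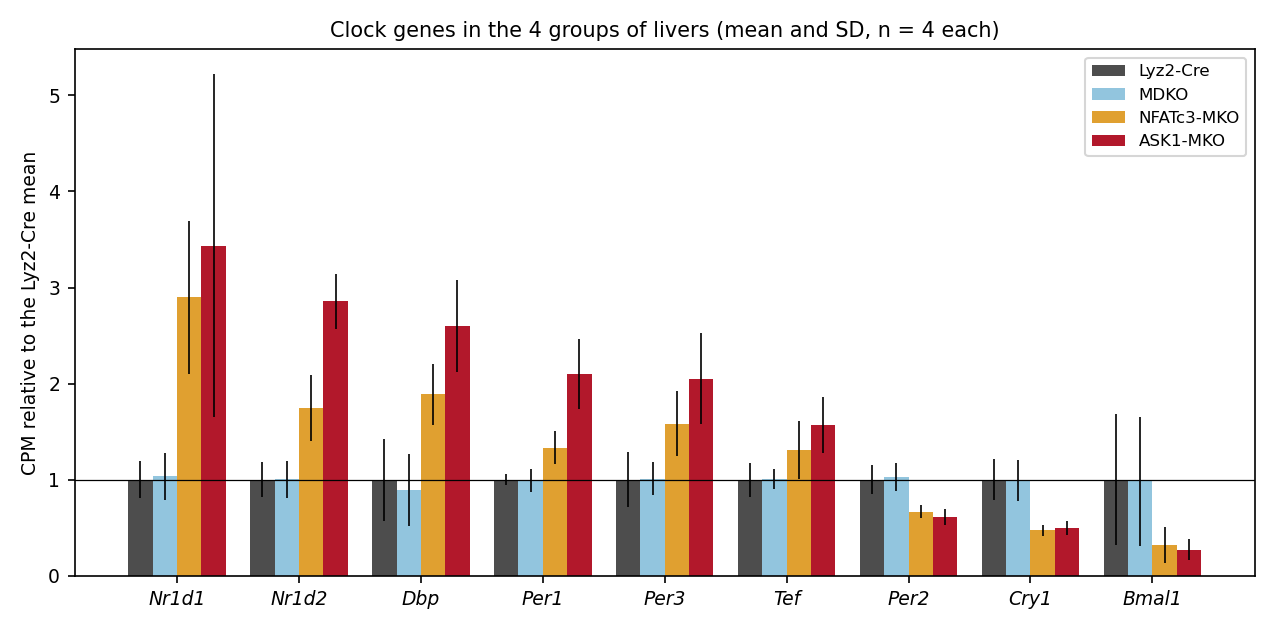
Mean CPM of 9 clock genes relative to the Lyz2-Cre mean (vertical axis, from 0) in Lyz2-Cre, MDKO, NFATc3-MKO and ASK1-MKO livers; bars are means and lines the SD, n = 4 each. Nr1d1, Nr1d2, Dbp, Per1 and Per3 are high and Per2 and Cry1 low in ASK1-MKO, with NFATc3-MKO on the same side of 1 for each of these.

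Glucocorticoid response genes held 3 calls among 14, all rises, in Per1, Lpin1 and Klf9, where 4.46% of all genes tested rose. Klf9, a repressor induced by glucocorticoids and thyroid hormone, measured 248, 186, 166 and 134 CPM in the ASK1-MKO livers and 47.1, 70.8, 64.1 and 64.6 CPM in the Lyz2-Cre livers. It was 2.97-fold higher (log2 change +1.57 ± 0.21, edgeR adjusted p = 2.57e-04). Klf9, Per1 and Lpin1 also follow the clock. The standard glucocorticoid targets Fkbp5 (+0.25 ± 0.18, adjusted p = 0.429), Tsc22d3 (-0.50 ± 0.24, adjusted p = 0.224) and Tat (+0.49 ± 0.27, adjusted p = 0.286) did not pass.

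Of 27 unfolded protein and integrated stress response genes, 5 rose and none fell, beside 4.46% and 4% of all genes tested. Their median change was +0.51, and 23 of the 27 changes were positive. Hsp90b1, the chaperone of the endoplasmic reticulum, measured 840.3, 748, 1013 and 730.1 CPM in the ASK1-MKO livers and 577, 513, 610.4 and 535 CPM in the Lyz2-Cre livers and kept its call in every alternative (log2 change +0.58 ± 0.13, edgeR adjusted p = 0.00957). Atf6, a sensor of that compartment, rose (+0.82 ± 0.20, adjusted p = 0.0173) but lost the call without ASK1-MKO 3 or Lyz2-Cre 1 or 4 (adjusted p up to 0.0653). Dnajc3 (+0.51 ± 0.14, adjusted p = 0.0270) lost it without any 1 liver other than ASK1-MKO 1 or 2 or Lyz2-Cre 3, or in the fit of 12 livers (adjusted p up to 0.0877). Herpud1 (+0.83 ± 0.23, adjusted p = 0.0367) lost it without any 1 liver other than ASK1-MKO 2 or Lyz2-Cre 2 or 4 (adjusted p up to 0.102), and Dnajb9 (+0.92 ± 0.27, adjusted p = 0.0446) lost it without any 1 liver other than ASK1-MKO 1 or 2, or with no expression filter or in the fit of these 8 livers alone or in the fit of 12 livers (adjusted p up to 0.151). ASK1-MKO 3 was the highest liver for all of these, and without it, or without Lyz2-Cre 1, 1 member rose. DESeq2 called 10. Hspa5, Atf4 and Ddit3 did not pass.

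Of 21 heat shock and cold-inducible genes, 4 fell and none rose, beside 4% and 4.46% of all genes tested. Hspa8, the constitutive cytosolic chaperone, measured 1411, 1411, 1597 and 1821 CPM in the ASK1-MKO livers and 3059.7, 1928, 3396 and 2517 CPM in the Lyz2-Cre livers. The groups did not overlap (log2 change -0.80 ± 0.19, edgeR adjusted p = 0.0152), but the call was lost without ASK1-MKO 1 or 2 or Lyz2-Cre 3 (adjusted p up to 0.0631). Hspa1a, Hspa1b and Dnaja1 fell and were unstable in the same way. Hspa1a (-2.41 ± 0.60, adjusted p = 0.0204) lost the call without any 1 liver other than ASK1-MKO 4 or Lyz2-Cre 2 or 4 (adjusted p up to 0.0706) and Hspa1b (-2.49 ± 0.74, adjusted p = 0.0474) lost it without any 1 liver other than ASK1-MKO 4 or Lyz2-Cre 2 or 4, or with no expression filter or with a replicate block or in the fit of these 8 livers alone or in the fit of 12 livers (adjusted p up to 0.132); these 2 are near-identical genes. Dnaja1 (-0.50 ± 0.14, adjusted p = 0.0293) lost it without any 1 liver other than Lyz2-Cre 2, or with no expression filter or in the fit of 12 livers (adjusted p up to 0.108). No member fell without ASK1-MKO 1, ASK1-MKO 2 or Lyz2-Cre 3. In Hspa8 the NFATc3-MKO livers, at 1316 CPM, did not differ from ASK1-MKO past the threshold (adjusted p = 0.395).

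Autophagy genes were listed after their values were seen, so their count is a description. Of 36, 9 rose and none fell (median +0.21), beside 4.46% of all genes tested that rose. Ulk1, the kinase that starts autophagosome formation, measured 55.9, 53.8, 54.3 and 59.5 CPM in the ASK1-MKO livers and 34.0, 32.4, 30.4 and 25.6 CPM in the Lyz2-Cre livers. Its partners Rb1cc1 and Atg13 rose likewise (+0.85 ± 0.14, adjusted p = 0.00111 and +0.99 ± 0.17, adjusted p = 0.00209), and Rb1cc1 measured 46.0, 51.1, 54.3 and 45.5 CPM in the ASK1-MKO livers and 28.0, 29.2, 25.8 and 25.8 CPM in the Lyz2-Cre livers. The groups were apart in all 3 genes. Gabarapl1, which is conjugated to the autophagosome membrane, rose 1.81-fold (log2 change +0.85 ± 0.17, edgeR adjusted p = 0.00543). These 4 calls held in every alternative.

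Most of the histone genes tested fell. Libraries were made from poly-A selected RNA, and replication-dependent histone messages end without a poly-A tail, so only a residue of them is counted, and 22 of the 39 in the table were below the filter. Among those 22, H2ac19 went the other way, with 67 reads over the ASK1-MKO livers and none in the controls. Of 17 tested, 10 fell and 1 rose (median -1.72), beside 4% and 4.46% of all genes tested. The linker histone H1f2 measured 46.7, 24.6, 69.4 and 65.8 CPM in the ASK1-MKO livers and 173, 163, 151 and 192 CPM in the Lyz2-Cre livers. It was 3.28-fold lower without overlap (log2 change -1.72 ± 0.26, edgeR adjusted p = 9.08e-04). H1f3 fell more (log2 change -3.90 ± 0.50, edgeR adjusted p = 2.33e-04), with 0.340, 0.133, 0.476 and 1.42 CPM in the ASK1-MKO livers and 6.35, 7.86, 6.92 and 13.9 CPM in the Lyz2-Cre livers, and its change was -4.77 without ASK1-MKO 4. H1f4 fell as well (-3.02 ± 0.44, adjusted p = 6.60e-04). H3c15 (-2.85 ± 0.30, adjusted p = 7.69e-05) and H3c14 (-2.10 ± 0.25, adjusted p = 1.82e-04) are near-identical genes. H1f0, whose message is polyadenylated, rose (+0.53 ± 0.15, adjusted p = 0.0356) but lost the call without any 1 liver other than ASK1-MKO 2 or Lyz2-Cre 1 or 2 (adjusted p up to 0.124). None of 29 cell cycle and proliferation genes passed in edgeR (7 at an unadjusted p under 0.05, 2 called by DESeq2, 5 by voom), among them Mki67 (+0.25 ± 0.34, adjusted p = 0.706) and Top2a (+0.16 ± 0.33, adjusted p = 0.822). Whether the share of messages without a tail differed between libraries was not tested.

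Inflammation and fibrosis, the features that define steatohepatitis, showed few calls, where 4.46% of all genes tested rose and 4% fell. None of 23 cytokines and chemokines passed in edgeR or DESeq2, voom called 2, and 3 had an unadjusted p under 0.05. Of their changes 19 were negative (median -0.48). Tnf was near the detection limit in all livers (0.265, 0.10, 0.102 and 0.119 CPM in the ASK1-MKO livers and 0.0804, 0.850, 0 and 0.155 CPM in the Lyz2-Cre livers). Ccl2, the monocyte chemokine, measured 2.16, 0.300, 0.748 and 1.58 CPM in the ASK1-MKO livers and 1.49, 7.39, 1.36 and 2.11 CPM in the Lyz2-Cre livers, with Lyz2-Cre 2 far above the rest (log2 change -1.39 ± 0.71, edgeR adjusted p = 0.254). Il1b (-0.19 ± 0.57, adjusted p = 0.878) and Cxcl10 (-1.03 ± 0.50, adjusted p = 0.226) overlapped too. Lyz2 itself, a macrophage and neutrophil gene, measured 75.01, 82.2, 61.2 and 73.4 CPM in the ASK1-MKO livers and 52.5, 195, 76.8 and 85.9 CPM in the Lyz2-Cre livers (log2 change -0.49 ± 0.51, edgeR adjusted p = 0.604). Of the 17 markers of recruited monocytes and of lipid-associated macrophages, Lgals1 fell (-0.89 ± 0.23, adjusted p = 0.0215) and lost the call without ASK1-MKO 1, 2 or 3 or Lyz2-Cre 2, or in the fit of 12 livers (adjusted p up to 0.0647), while Trem2 (-0.47 ± 0.43, adjusted p = 0.552) and Gpnmb (-1.52 ± 0.83, adjusted p = 0.293) did not pass.

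In the interferon list, Stat2 fell (log2 change -0.48 ± 0.10, edgeR adjusted p = 0.00625) and Bst2 rose (+0.70 ± 0.18, adjusted p = 0.0221), of 29. Over all genes tested, 4% fell and 4.46% rose. Stat2 kept its call in every alternative and Bst2 lost it without ASK1-MKO 1 or 2 or Lyz2-Cre 3 (adjusted p up to 0.0812). Of 26 acute phase and complement genes, C9 (+0.61 ± 0.17, adjusted p = 0.0392) and Lbp (+0.69 ± 0.17, adjusted p = 0.0181) rose. C9 lost the call without any 1 liver other than ASK1-MKO 1 or 4 or Lyz2-Cre 2 (adjusted p up to 0.122), and Lbp lost it without ASK1-MKO 1 or 2 or Lyz2-Cre 3 or 4 (adjusted p up to 0.0696). None of 34 fibrosis and matrix genes passed in edgeR or DESeq2, voom called 1, and 2 had an unadjusted p under 0.05. The collagen gene Col1a1 measured 10.3, 13.5, 5.06 and 18.1 CPM in the ASK1-MKO livers and 3.70, 24.7, 6.31 and 8.51 CPM in the Lyz2-Cre livers, with Lyz2-Cre 2 highest (log2 change +0.11 ± 0.65, edgeR adjusted p = 0.941).

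Among 31 BMP, TGF-beta and SMAD genes, 3 rose and 2 fell, with a median change of +0.01. Over all genes tested, 4.46% rose and 4% fell. Smad9, a receptor-regulated SMAD of the BMP branch, measured 35.6, 51.0, 31.2 and 38.0 CPM in the ASK1-MKO livers and 11.9, 10.8, 9.73 and 6.65 CPM in the Lyz2-Cre livers. It rose 3.97-fold without overlap (log2 change +1.99 ± 0.32, edgeR adjusted p = 0.00127). Smad4, the shared partner of the receptor SMADs, rose (log2 change +0.59 ± 0.14, edgeR adjusted p = 0.0132), and both held in every alternative. Fst, which binds activin, rose (+1.83 ± 0.53, adjusted p = 0.040) and lost the call without ASK1-MKO 2 or Lyz2-Cre 1, 3 or 4, or with no expression filter or in the fit of these 8 livers alone or in the fit of 12 livers (adjusted p up to 0.186). Smad1 (-0.44 ± 0.12, adjusted p = 0.0371) lost it without any 1 liver other than ASK1-MKO 3 or Lyz2-Cre 1, or with no expression filter or in the fit of these 8 livers alone or in the fit of 12 livers (adjusted p up to 0.111), and the activin subunit Inhbe (-0.64 ± 0.19, adjusted p = 0.0415) lost it without any 1 liver other than ASK1-MKO 1, or in the fit of 12 livers (adjusted p up to 0.130). The BMP target Id1 did not pass (+0.23 ± 0.38, adjusted p = 0.767). Among 20 immediate early genes Egr1 fell (-1.24 ± 0.31, adjusted p = 0.0195) and lost the call without ASK1-MKO 2 or 4 or Lyz2-Cre 1 or 3 (adjusted p up to 0.0693). Of 14 NFAT and calcineurin genes, Rcan1, a calcineurin inhibitor that NFAT induces, fell (log2 change -1.02 ± 0.22, edgeR adjusted p = 0.00915), with 20.2, 26.0, 34.2 and 39.3 CPM in the ASK1-MKO livers and 50.3, 47.5, 88.7 and 55.9 CPM in the Lyz2-Cre livers. Ppp3cc, a calcineurin subunit, fell (-0.70 ± 0.18, adjusted p = 0.0257) and lost the call without any 1 liver other than ASK1-MKO 3 or Lyz2-Cre 1 or 2, or in the fit of 12 livers (adjusted p up to 0.0872).

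For the zonation lists, the shares over all genes tested were 4% that fell and 4.46% that rose. Of 20 pericentral genes 3 fell, namely Aldh1a1, Rhbg and Lgr5, and none rose. Their changes were negative in 16 (median -0.21), and they summed to 11059.7 to 15874 CPM in the ASK1-MKO livers and 16494 to 21636 CPM in the Lyz2-Cre livers, without overlap. Without ASK1-MKO 1 or 3 or Lyz2-Cre 4 only 1 fell, and 2 fell in the fit of 12 livers, whereas DESeq2 called 5 and voom 6. Of 18 periportal genes, which summed to 112700.0 to 128625 CPM in the ASK1-MKO livers and 98344 to 135714 CPM in the Lyz2-Cre livers, Sds and Pck1 rose and none fell. Sds, serine dehydratase, (+1.25 ± 0.33, adjusted p = 0.0252) lost the call without any 1 liver other than ASK1-MKO 3 or 4 or Lyz2-Cre 1, or in the fit of 12 livers (adjusted p up to 0.0799). The ammonium transporter gene Rhbg (-1.07 ± 0.28, adjusted p = 0.0268) lost it without any 1 liver other than ASK1-MKO 4 or Lyz2-Cre 1 (adjusted p up to 0.0892), and Lgr5 (-0.93 ± 0.26, adjusted p = 0.0325) lost it without any 1 liver other than ASK1-MKO 2 or Lyz2-Cre 1 or 3, or in the fit of 12 livers (adjusted p up to 0.111). Glul (-0.17 ± 0.13, adjusted p = 0.436) and Cyp2e1 (-0.50 ± 0.17, adjusted p = 0.0844), abundant around the central vein, did not pass.

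Some of the smallest p-values outside the lists belonged to genes better known from the gut lining, chosen here after their values were seen. Others belonged to genes without that link, such as Olig1, Tcp11l2 and Maff, described further on. Ces2c, a carboxylesterase of liver and intestine, had the smallest of all, with 12.5, 11.6, 16.6 and 14.0 CPM in the ASK1-MKO livers and 65.2, 52.8, 56.3 and 39.4 CPM in the Lyz2-Cre livers (log2 change -1.97 ± 0.16, edgeR adjusted p = 6.20e-06). Ces2e fell less (-0.74 ± 0.11, adjusted p = 9.98e-04), and 3 of the 6 Ces2 genes tested fell, which are paralogs that may share reads. Car2, carbonic anhydrase 2, measured 21.7, 14.7, 16.3 and 18.2 CPM in the ASK1-MKO livers and 50.5, 60.04, 64.5 and 70.9 CPM in the Lyz2-Cre livers and was 3.47-fold lower (log2 change -1.79 ± 0.17, edgeR adjusted p = 3.22e-05). Mogat2, the monoacylglycerol acyltransferase of fat absorption, measured 0.416, 0.367, 0.646 and 0.711 CPM in the ASK1-MKO livers and 3.70, 2.76, 3.13 and 2.94 CPM in the Lyz2-Cre livers (log2 change -2.55 ± 0.23, edgeR adjusted p = 2.12e-05). Vil1, which bundles actin in microvilli, measured 0.907, 2.07, 1.12 and 1.19 CPM in the ASK1-MKO livers and 5.39, 6.37, 3.88 and 5.93 CPM in the Lyz2-Cre livers (log2 change -2.02 ± 0.25, edgeR adjusted p = 2.13e-04). Every control was above every ASK1-MKO liver in these 4 genes.

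Of 28 intestinal epithelium genes listed in this way, 16 were tested and 11 fell (median -1.35, also with Lrrc19, which had no reads in ASK1-MKO livers, set at its bound), with none that rose. Among all genes tested, 4% fell and 4.46% rose. As the list was written after the values were seen, this count is a description. Lrrc19 passed the expression filter only through the other livers. Slc34a2, a phosphate transporter also listed as a cholangiocyte marker, measured 0.0378, 0.0333, 0.204 and 0.474 CPM in the ASK1-MKO livers and 2.65, 3.27, 4.58 and 5.52 CPM in the Lyz2-Cre livers (log2 change -4.42 ± 0.62, edgeR adjusted p = 4.46e-04), and without ASK1-MKO 4 its change was -5.35. The bile duct markers Krt19 (+0.03 ± 0.50, adjusted p = 0.981) and Epcam (+0.10 ± 0.52, adjusted p = 0.933) did not pass, and the 11 cholangiocyte markers tested summed to 57.1 to 164 CPM in the ASK1-MKO livers and 82.9 to 151 CPM in the Lyz2-Cre livers. Krt20, a keratin of gut epithelium, measured 0.0756, 0.0333, 0 and 0 CPM in the ASK1-MKO livers and 0.121, 3.87, 0.421 and 1.08 CPM in the Lyz2-Cre livers. With 3 reads over the ASK1-MKO livers it was 51.5-fold lower with a 95% counting interval of 17.2 to 253 (edgeR adjusted p = 0.0167), and it lost the call without Lyz2-Cre 2 (adjusted p up to 0.0654). Afp, the fetal albumin-like protein, fell 4.82-fold (log2 change -2.27 ± 0.32, edgeR adjusted p = 5.02e-04), with 4.05, 2.87, 5.88 and 4.86 CPM in the ASK1-MKO livers and 16.1, 35.2, 16.3 and 17.5 CPM in the Lyz2-Cre livers. Nat8, an acetyltransferase of liver and kidney, fell 5.12-fold (log2 change -2.36 ± 0.30, edgeR adjusted p = 2.27e-04). Egfr, the epidermal growth factor receptor, which is also higher in male liver, measured 88.1, 145, 179 and 164 CPM in the ASK1-MKO livers and 61.5, 76.7, 68.6 and 45.4 CPM in the Lyz2-Cre livers and rose (log2 change +1.19 ± 0.22, edgeR adjusted p = 0.00316).

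**Figure D5:**
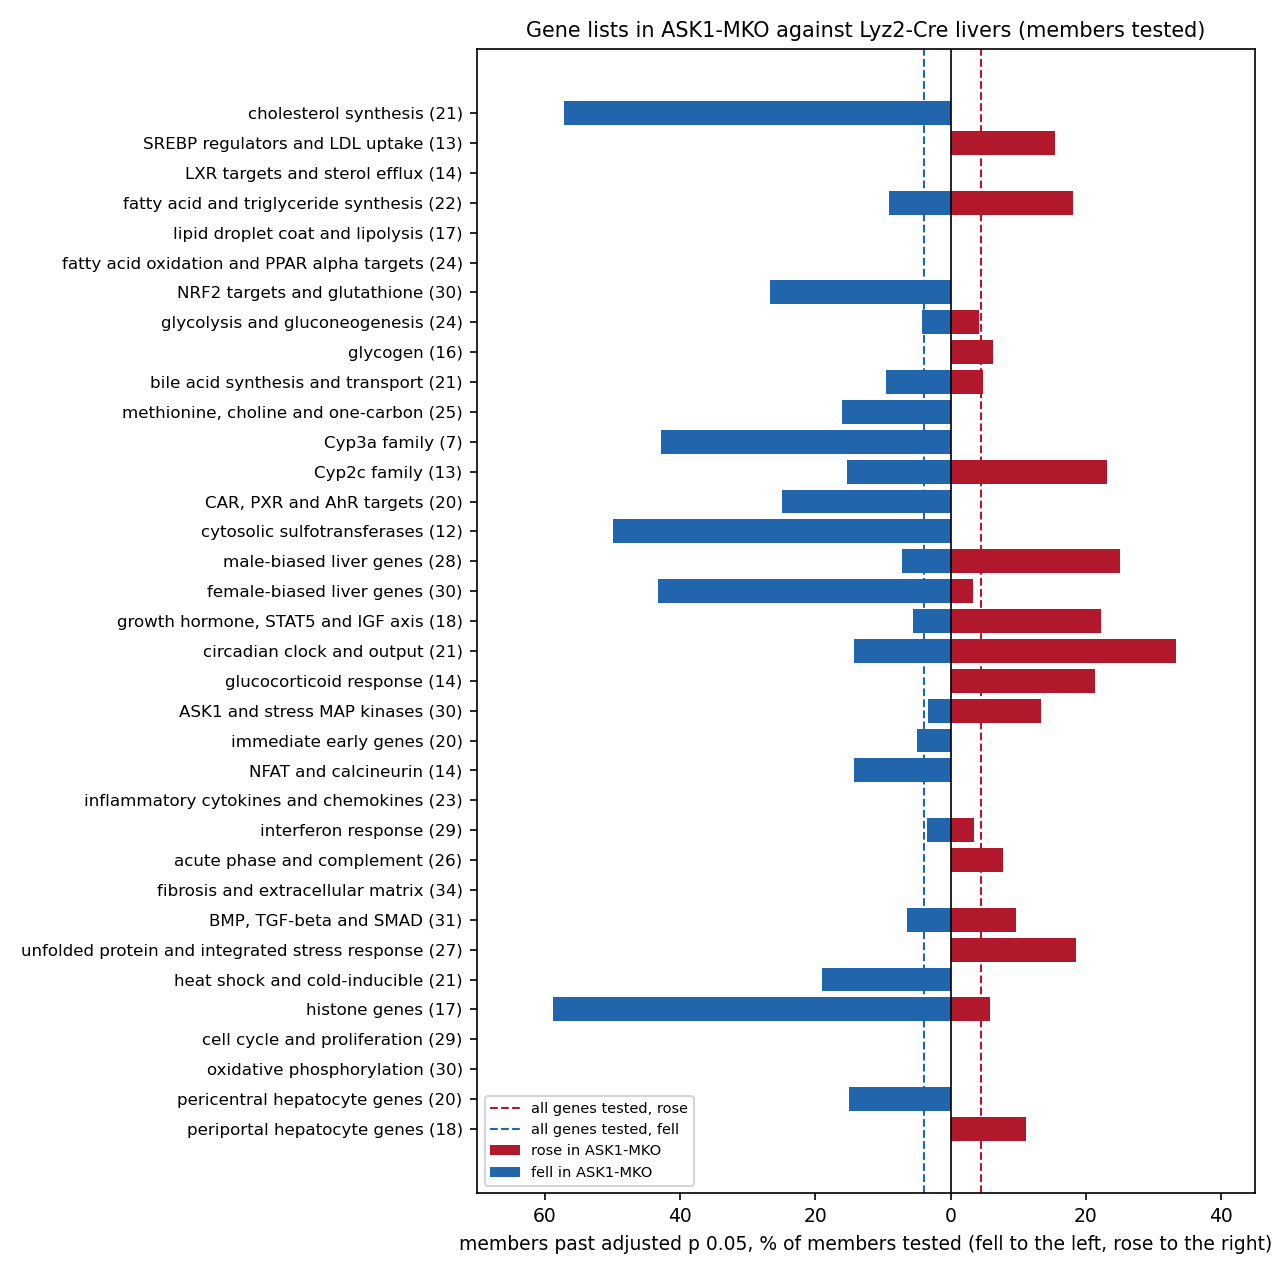
Share of the members tested (horizontal axis, percent) that fell (blue, left) or rose (red, right) in ASK1-MKO livers for the 35 pathway, family and zonation lists, with the number tested in parentheses; the dashed lines are the shares over all genes tested, 4% fell and 4.46% rose. Cholesterol synthesis, histone, sulfotransferase and female-biased genes lie far to the left of the line for all genes.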

How the data were processed

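RNA of whole livers was purified with TRIzol and sequenced as poly-A selected, strand-marked (dUTP) libraries, per the labels' protocols. The submitters' processing notes name HISAT2 and the mm10 genome, and how reads were counted, and with which gene models and strand setting, is likewise not given in the sources used here, so antisense overlaps cannot be told apart. The authors deposited 1 table of estimated counts (expected counts) per gene for 16 livers, in which 85.42% of values were whole. A table value is therefore not always a number of reads, and values were rounded before testing. Overlapping and near-identical genes may share counts.

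From there, genes were kept with edgeR 4.0.16 filterByExpr (13309 of 17752), scaled by TMM and fitted with robust quasi-likelihood F tests over all 16 livers in R 4.3.3, with Benjamini-Hochberg adjustment over all genes tested. Every adjusted p printed is from that fit unless another tool is named, and the standard error is the log2 change divided by the root of F. Genes to name were Map3k5 and Nfatc3, the 15 steepest rises and 15 steepest falls, chosen lead genes and up to 6 called members per list. Genes named outside that rule, the autophagy, Ces2 and intestinal lists among them, were chosen after their values were seen. Members and lists were chosen with earlier results of these data known. Alternatives included DESeq2 1.42.0, limma 3.58.1 voom, other filters and each liver left out. Figures used matplotlib 3.10.9. Counting intervals and floors of 3 counts cover counting error only. Gene positions and promoters are from RefSeq on GRCm38.p6, the build of mm10. The macrophage cultures of the series were not used here. Some genes were tested in the fit but left out of the lists, and are not reported here.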

Additional observations from a re-analysis of the deposited data

Results flagged for a closer look

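A liver was picked out where its CPM stood apart from the other 3 of its group, with a gap to the nearest of them that exceeded Dixon's 95% limit for 4 samples. Of 404 groups of 4 tested, 27 were picked out (6.68%), and chance alone gives about 1 in 20. Lyz2-Cre 2 accounted for 10 of them and ASK1-MKO 3 for 6. Values are CPM, with the range of the other 3 livers of the group in parentheses.

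Lyz2-Cre 2 was higher for Cyp3a41a at 136 (20.5 to 26.9), Socs3 at 5.35 (2.73 to 3.18), Mki67 at 15.1 (5.38 to 6.24) and Ccl2 at 7.39 (1.36 to 2.11). It was also higher for Lgals1 at 32.7 (24.5 to 25.5), Gpnmb at 73.4 (6.56 to 14.2), Smad4 at 30.4 (24.5 to 24.9) and Epcam at 3.87 (2.68 to 2.71). It was also higher for Afp at 35.2 (16.1 to 17.5). It was also lower for Cyp4a12b at 1.78 (4.16 to 4.42).

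ASK1-MKO 3 was higher for Map2k7 at 26.4 (23.1 to 23.3), Mbtps1 at 64.1 (57.8 to 58.8), Ddit3 at 35.6 (5.4 to 10.5) and Atg13 at 80.8 (52.1 to 55.8). It was also higher for Smad4 at 43.4 (37.5 to 38.5). It was also lower for Trim24 at 62.4 (69.5 to 70.8).

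Lyz2-Cre 1 was higher for Nqo1 at 52.4 (29.6 to 31.6) and Tef at 143 (101 to 106). It was also lower for Aldh1a1 at 2070 (2460 to 2500). Lyz2-Cre 4 was higher for Hsd3b5 at 1.08 (0.241 to 0.382) and Ppp1r3g at 5 (1.4 to 2.01). ASK1-MKO 1 was higher for Cyp2b9 at 262 (196 to 205) and Tnf at 0.265 (0.1 to 0.119). ASK1-MKO 2 was higher for Fst at 8 (1.74 to 2.52). It was also lower for Alas2 at 12.3 (16.1 to 16.3). ASK1-MKO 4 was higher for Spink1 at 0.988 (0.643 to 0.667). It was also lower for Abca1 at 149 (174 to 178).

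None of the genes picked out through Lyz2-Cre 2 that were called changed direction without that liver.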

How the results depend on the processing

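Against the 1126 calls, voom with quality weights gave 2649 (1353 higher, 1296 lower), an adjusted p under 0.1 gave 1845 (973 and 872), and a change of at least 2-fold kept 304 (117 and 187). DESeq2's Wald test gave 1632, 928 of them higher. Leaving out 1 liver gave 587 to 1025 calls, 290 to 567 higher and 297 to 458 lower, with fewer samples in each such fit. The fit of 12 livers, chosen after seeing the data, gave 769. The log2 change of Map3k5 was 0.58 there with adjusted p = 0.0584, and 0.51 to 0.63 with 1 liver left out. DESeq2 size factors, a mean of 1 CPM or more, no filter and the fit of the 8 livers alone gave counts within 1.5 times the first. Of the 157 called genes that were listed or named, 98 kept the call in every alternative and 59 lost it when some liver was left out, and none changed sign. The cause of these losses, beyond the smaller number of livers, was not tested.

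With replicate number as a block the count was 1453 and Map3k5 changed by 0.59. The labels do not say that numbers pair animals. Deviations of same-numbered ASK1-MKO and Lyz2-Cre livers correlated at 0.129, 0.0579, 0.164 and -0.0202, not over 0.1 in every pair, so the block was not used for the calls. The block also covers the MDKO livers, which were nearest to the Lyz2-Cre livers of their own number. No liver is known to be a separate animal, and low genes such as Tnf were limited by counts of a few reads.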

Other observations

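Several of the steepest changes lay outside every pathway described above. Wsb1, a subunit of ubiquitin ligases, measured 33.6, 50.4, 16.7 and 14.3 CPM in the ASK1-MKO livers and 3.98, 9.14, 4.86 and 6.60 CPM in the Lyz2-Cre livers. Every ASK1-MKO liver was above every control, and the level was 4.69-fold higher (log2 change +2.23 ± 0.38, edgeR adjusted p = 0.00199). Maff, a small MAF transcription factor, measured 19.9, 17.7, 29.2 and 14.3 CPM in the ASK1-MKO livers and 4.67, 8.07, 5.38 and 5.83 CPM in the Lyz2-Cre livers. It rose 3.39-fold without overlap (log2 change +1.76 ± 0.21, edgeR adjusted p = 1.82e-04), as did Tcp11l2 (+1.88 ± 0.22, adjusted p = 1.46e-04). Bik, a BH3-only protein that promotes apoptosis, rose from a low level (log2 change +1.99 ± 0.43, edgeR adjusted p = 0.00859), with 3.14, 2.73, 1.53 and 1.66 CPM in the ASK1-MKO livers and 0.684, 0.637, 0.421 and 0.516 CPM in the Lyz2-Cre livers. Adcy1, an adenylate cyclase, rose (+2.16 ± 0.63, adjusted p = 0.0442) but lost the call without any 1 liver other than ASK1-MKO 2 or Lyz2-Cre 2, or with no expression filter or in the fit of these 8 livers alone or in the fit of 12 livers (adjusted p up to 0.137). Tafa2, which encodes a secreted protein, rose (+1.64 ± 0.47, adjusted p = 0.0383) and lost it without any 1 liver other than ASK1-MKO 4 or Lyz2-Cre 3 (adjusted p up to 0.112).

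Among genes that fell, the efflux transporter gene Abcg2, chosen with Olig1 and Treh after their values were seen, measured 63.1, 65.4, 68.0 and 67.7 CPM in the ASK1-MKO livers and 109, 111, 135 and 126 CPM in the Lyz2-Cre livers. No ASK1-MKO liver reached the control range (log2 change -0.86 ± 0.10, edgeR adjusted p = 1.82e-04). The transcription factor gene Olig1, best known from oligodendrocytes, measured 2.00, 2.5, 2.18 and 1.78 CPM in the ASK1-MKO livers and 11.9, 6.93, 8.47 and 8.36 CPM in the Lyz2-Cre livers and was 4.2-fold lower (log2 change -2.07 ± 0.23, edgeR adjusted p = 1.00e-04). Treh, the trehalase of brush border membranes, fell 2.67-fold (log2 change -1.41 ± 0.22, edgeR adjusted p = 9.98e-04). Spink1, a trypsin inhibitor, measured 0.643, 0.667, 0.646 and 0.988 CPM in the ASK1-MKO livers and 2.29, 8.20, 3.93 and 2.48 CPM in the Lyz2-Cre livers, with Lyz2-Cre 2 the highest (log2 change -2.52 ± 0.49, edgeR adjusted p = 0.00469). Tmprss4, a membrane serine protease, Fam83f and the F-box gene Fbxw15 fell from low levels (-2.62 ± 0.44, adjusted p = 0.00176, -2.47 ± 0.33, adjusted p = 2.86e-04 and -2.40 ± 0.39, adjusted p = 0.00127). The calls of Wsb1, Maff, Tcp11l2, Bik, Abcg2, Olig1, Treh, Spink1, Tmprss4, Fam83f and Fbxw15 held in every alternative run.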
